A study of Mus musculus with 12 samples.

Results

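The pre-B cell receptor is built from the µ heavy chain, the surrogate light chain and a pair of signaling chains. The 7 genes that encode these chains, Ighm, Igll1, Vpreb1, Vpreb2, Vpreb3, Cd79a and Cd79b, were taken by name from 51826 genes counted in 12 mouse pre-B cell lines. All 7 passed the filter on low counts, as did 15038 genes in all. The rule is a list of names and uses no measured value, although the list was drawn up with earlier results of these data known.

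All lines came from C57BL/6 bone marrow kept for 7 days with interleukin 7 (IL7), the cytokine on which cultured B cell precursors depend. The cells of 2 mice were transduced with the retroviral vector pMIG, either empty (EV) or carrying BCR-ABL1, a constitutively active fusion kinase of human leukemia, and stayed 48 h with IL7. The BCR-ABL1 lines were then grown for 1 week in the absence of IL7, and the EV lines with it until a sort for GFP. Each mouse gave 3 EV and 3 BCR-ABL1 lines, named here by mouse and letter (EV 2C is an EV line of mouse 2), so there were 6 lines per condition. BCR-ABL1, IL7 removal and the absence of the GFP sort cannot be told apart in these lines. The lines of a mouse share its marrow, so p-values measure the spread among lines of 2 animals.

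In a pro-B cell that has joined a heavy chain gene, the µ chain is not yet able to pair with a conventional light chain. It pairs instead with λ5, the product of Igll1, and with VpreB, made by the near-identical genes Vpreb1 and Vpreb2. Cd79a and Cd79b (Igα and Igβ) carry the cytoplasmic signaling motifs to which the kinases Syk and Btk and the adaptor Blnk are coupled, and signals from the complex drive expansion of pre-B cells and then silence the surrogate light chain genes. Vpreb3 encodes a VpreB-related protein of the endoplasmic reticulum that associates with newly made µ chains.

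By GENCODE M21 on GRCm38, the surrogate light chain genes lie on chromosome 16, except for Vpreb3. Igll1 occupies chr16:16860671-16863985 on the minus strand. Vpreb1, at chr16:16868403-16870843 on the same strand, is separated from it by 4418 bp. Vpreb2 lies apart from both, at chr16:17980428-17981273 on the plus strand. Vpreb3 is at chr10:75943057-75949657, Ighm at chr12:113418558-113422730, Cd79a at chr7:24897381-24902197 and Cd79b at chr11:106311341-106314762. Counts per gene cover the annotated exons, and for Ighm these are the constant region exons.

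Promoter sequences were looked at because Igll1, Vpreb1 and Vpreb2 moved together across the lines, as described further on. RefSeq windows (GRCm38.p6) were matched by symbol for 5 of the 7 genes. The 250 bases before the RefSeq start are given 5′ to 3′ on the strand of the gene, with capitals for matches to 7 short motifs searched on both strands: CCCNNGGG (EBF1), CAGGTG (E proteins), ATTTGCAT (octamer), TTCNNNGAA (STAT5), TGTTTAC (FOXO1), TGGGAA (Ikaros) and AGGAAG (ETS).
Igll1 (chr16:16863986-16864235, minus strand): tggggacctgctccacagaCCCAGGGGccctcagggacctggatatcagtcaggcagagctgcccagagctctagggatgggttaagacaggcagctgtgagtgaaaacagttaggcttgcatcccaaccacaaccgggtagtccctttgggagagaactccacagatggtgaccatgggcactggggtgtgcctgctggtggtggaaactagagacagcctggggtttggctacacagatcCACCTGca
Vpreb1 (chr16:16869256-16869505, minus strand): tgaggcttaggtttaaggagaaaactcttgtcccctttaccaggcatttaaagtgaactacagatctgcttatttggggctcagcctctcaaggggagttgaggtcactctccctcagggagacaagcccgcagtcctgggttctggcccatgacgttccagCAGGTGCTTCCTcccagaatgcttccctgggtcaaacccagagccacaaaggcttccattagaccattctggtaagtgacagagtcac
Vpreb2 (chr16:17980315-17980564, plus strand): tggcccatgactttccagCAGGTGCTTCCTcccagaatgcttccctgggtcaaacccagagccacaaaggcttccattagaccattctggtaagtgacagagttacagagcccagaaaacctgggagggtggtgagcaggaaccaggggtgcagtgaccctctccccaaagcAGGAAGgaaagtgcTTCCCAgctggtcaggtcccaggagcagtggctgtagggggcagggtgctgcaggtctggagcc
Vpreb3 (chr10:75948050-75948299, plus strand): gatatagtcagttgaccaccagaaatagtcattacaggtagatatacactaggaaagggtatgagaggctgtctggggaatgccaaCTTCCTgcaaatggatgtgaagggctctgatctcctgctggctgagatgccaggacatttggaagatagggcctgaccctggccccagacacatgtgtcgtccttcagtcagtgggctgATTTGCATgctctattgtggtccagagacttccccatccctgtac
Cd79a (chr7:24897247-24897496, plus strand): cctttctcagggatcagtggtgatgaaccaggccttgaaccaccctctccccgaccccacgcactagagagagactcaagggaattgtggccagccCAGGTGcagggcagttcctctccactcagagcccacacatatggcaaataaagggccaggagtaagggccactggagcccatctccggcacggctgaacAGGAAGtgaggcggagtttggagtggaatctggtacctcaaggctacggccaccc

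The E protein letters occurred in 4 of these 5 windows (Igll1, Vpreb1, Vpreb2 and Cd79a), beside 20.2% of 32851 windows of 300 bases in the table, which also hold the 50 bases after the start. The ETS letters were likewise found in 4 of 5 (Vpreb1, Vpreb2, Vpreb3 and Cd79a), beside 35.4% of all windows. In Vpreb1 and Vpreb2 the E protein and ETS letters adjoin each other without overlap. The octamer, bound by OCT factors with the coactivator OBF1, was present in Vpreb3 only (1.74% of all windows), the EBF1 letters in Igll1 only (13.7%) and the Ikaros letters in Vpreb2 only (25.6%). Those of STAT5 (8.3%) and FOXO1 (3.65%) were in none of the 5. Such matches describe letters and not binding. The GENCODE genes start earlier than the RefSeq entries except for Igll1: the windows of Vpreb1 and Vpreb3 lie wholly inside the GENCODE gene, and those of Vpreb2 and Cd79a end inside it. The matches nearest to the RefSeq start of Vpreb2 (ETS and Ikaros) and of Cd79a (ETS) therefore lie within the annotated genes.

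The sequence before Vpreb1 recurs before Vpreb2. Over 156 aligned bases 153 were identical (98.1%), and a stretch of 106 bases is shown here that precedes the RefSeq start of Vpreb1 and the GENCODE and RefSeq starts of Vpreb2, with capitals at its 2 differences.
Vpreb1 (chr16:16869256-16869361, minus strand): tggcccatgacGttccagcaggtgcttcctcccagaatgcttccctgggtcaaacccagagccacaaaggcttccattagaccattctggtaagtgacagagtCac
Vpreb2 (chr16:17980315-17980420, plus strand): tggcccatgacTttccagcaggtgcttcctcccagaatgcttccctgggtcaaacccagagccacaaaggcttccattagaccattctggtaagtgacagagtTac
The transcripts were 97.4% identical (739 of 759 aligned bases). Of all 75-base stretches of its transcripts, Vpreb1 shared 10.9% with Vpreb2, and Vpreb2 shared 19.9% with Vpreb1. At 150 bases, the read length, the shares were 3.75% and 7.7%. Reads from these stretches cannot be assigned to 1 of the genes, so the split between Vpreb1 and Vpreb2 is less certain than their sum. Cd79a shared 4.48% of its 75-base stretches with Gm32220, and the other 4 genes shared none with any other gene. On the opposite strand Top3b overlaps Vpreb1 and the pseudogene Gm16221 overlaps Vpreb3. Whether counting used strand is not given in the sources used here.

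Counts on genes summed to between 34791011 (EV 2A) and 66011225 per line. The 7 chain genes took between 0.429% and 0.693% of all counts in EV lines and between 0.320% and 0.405% in BCR-ABL1 lines. B lineage identity was visible in all 12 lines, with Pax5 between 309.7 and 568.9 CPM (counts per 1000000, scaled by the TMM method of edgeR). Of 16 B lineage markers 14 were tested, of which Bst1 and Cd2 were higher and Cd93, Il7r, Cd22 and Ms4a1 lower in BCR-ABL1 lines. Over all tested genes 5.99% were called higher and 6.49% lower. Summed markers of other cells, in CPM of all counts without TMM scaling, were low, at 4.42 to 6.80 CPM (EV) and 4.92 to 7.70 CPM (BCR-ABL1) for 15 myeloid genes, at 1.97 to 3.01 and 1.23 to 4.47 CPM for 11 T and NK genes, at most 0.604 and 0.0303 CPM for 7 mast and basophil genes, and at 1.26 to 6.67 and 5.79 to 12.3 CPM for 7 erythroid genes. Few of these 40 genes passed the filter, so that 1 myeloid, 3 T and NK, 0 mast and basophil and 2 erythroid genes were tested. Among the tested ones Cd3d was lower and Hbb-bt higher in BCR-ABL1 lines, beside the same shares of all tested genes. Of the 40 genes 4 were at 0 in all lines.

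Ighm, the constant region gene of the µ heavy chain, was the only one of the 7 genes called different between the conditions. In EV lines it was counted at 2228 CPM in the lowest line (2C), 2767 at the median and 3582 in the highest (2B). In BCR-ABL1 lines the lowest line had 1233 CPM (2C), the median was 1364 and the highest line had 1445 (1A). All BCR-ABL1 lines thus lay below all EV lines. The means were 2833 ± 455 CPM and 1345 ± 85.3 CPM (SD, n = 6 each), a difference of -1.07 ± 0.10 (log2, SE), or 2.11-fold lower with BCR-ABL1 (FDR = 0.00129, edgeR glmTreat against a 1.5-fold change). Here and below, the difference comes from the fit. The SE comes from the spread of log2 CPM among lines and does not belong to the fitted value. An exact two-sided permutation test over 924 labelings of the lines gave p = 0.00216, the smallest value that this design allows. In bulk RNA, fewer cells with a µ transcript and less µ RNA per cell cannot be told apart.

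Of the 7 chain genes, 0 were called higher, beside 5.99% of all 15038 tested genes, and 1, Ighm, was called lower, beside 6.49%. Separation of the lines gave the same picture, with 0 of 7 genes above EV in all BCR-ABL1 lines (12.1% of all tested genes) and Ighm below (13.5%). With mouse as replicate block 0 were higher (7.49% of all tested genes) and 1 lower (7.18%). The median log2 difference of the 7 was -0.00, beside -0.02 over all tested genes.

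**Figure D1:**
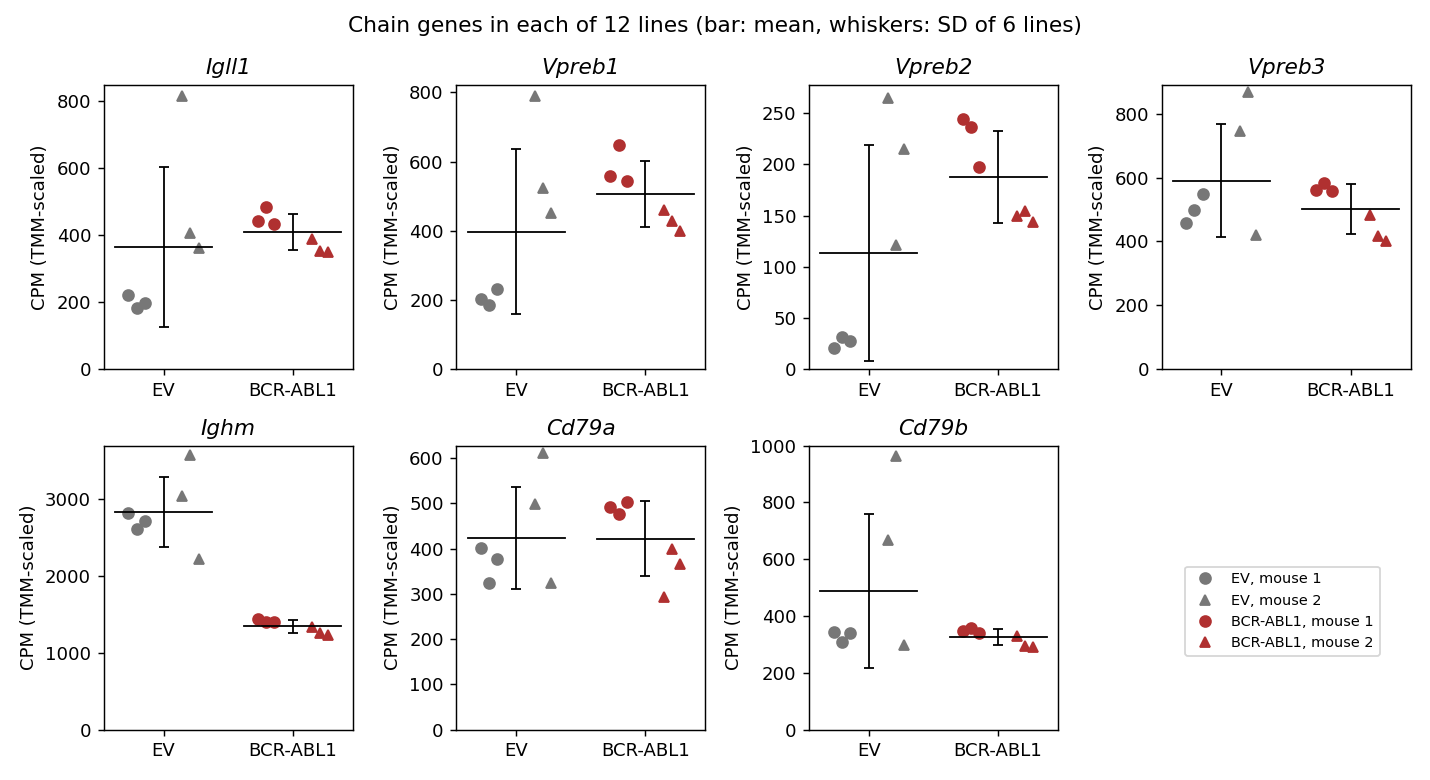
TMM-scaled CPM (linear axes from 0) of the 7 chain genes in 12 lines, with circles for mouse 1, triangles for mouse 2, bars for the mean and whiskers for the SD of 6 lines per condition. Ighm separates the conditions, whereas the EV lines of Igll1, Vpreb1 and Vpreb2 split by mouse.

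Ighm took 44.6% to 63.1% of the counts of the 7 genes in EV lines and 33.4% to 38.8% in BCR-ABL1 lines. There were 5.86 to 8.08 counts of Ighm per count of Cd79a in EV lines, against 2.79 to 4.53 in BCR-ABL1 lines. For Igll1 these ratios were 3.74 to 14.4 and 2.90 to 3.58. In none of these ratios did the conditions overlap. Between 59395 and 180864 reads per line were counted on Ighm, so counting error is small beside the spread of the lines.

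Igll1 (λ5), the chain that stands in for a light chain constant region, was present at similar mean levels in both conditions. The EV lines of mouse 1 held 219, 181 and 197 CPM (1A to 1C), and those of mouse 2 held 812.5, 405.2 and 361.8 CPM (2A to 2C). The BCR-ABL1 lines held 441.8, 481.5 and 432.8 CPM in mouse 1 and 387, 351.4 and 349.4 CPM in mouse 2. The BCR-ABL1 lines lay within the range of the EV lines, above all EV lines of mouse 1, and EV 2A, the line with the lowest total count, stood apart at the top. Means were 363 ± 239 CPM in EV and 407.3 ± 53.4 CPM in BCR-ABL1 lines (SD, n = 6 each), with a log2 difference of 0.17 ± 0.35 (SE, FDR = 1, glmTreat).

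Vpreb1, which supplies the variable-like part of the surrogate light chain, followed the same pattern. It was counted at 203, 186.1 and 229.9 CPM in the EV lines of mouse 1 and at 790.1, 523.6 and 451.5 CPM in those of mouse 2. The BCR-ABL1 lines of mouse 1 held 559.6, 648.8 and 545.003 CPM, and those of mouse 2 held 459.95, 427.7 and 397.8 CPM. Again the EV lines of mouse 1 were the lowest of all 12 and EV 2A the highest. The conditions overlapped, with means of 397 ± 238 and 506 ± 94.6 CPM (SD, n = 6 each) and a log2 difference of 0.35 ± 0.37 (SE, FDR = 1, glmTreat).

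Vpreb2, the close copy of Vpreb1, varied most. The EV lines of mouse 1 held 20.8, 31.2 and 27.5 CPM, against 264.8, 120.9 and 215.3 CPM in the EV lines of mouse 2. The BCR-ABL1 lines held 244.7, 236.1 and 197 CPM in mouse 1 and 149.7, 154.4 and 143 CPM in mouse 2. All lines but the EV lines of mouse 1 were thus above 100 CPM. The means, 113 ± 106 and 188 ± 45.2 CPM (SD, n = 6 each), differed by 0.73 ± 0.68 on the log2 scale (SE, FDR = 0.857, glmTreat). This SE is that of mean log2 CPM, in which the low EV lines of mouse 1 weigh more than in the fit. The difference and its SE are thus not to be read as a ratio. With mouse as replicate block the fitted difference was 1.33 (FDR = 0.344).

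For these 3 genes the difference between BCR-ABL1 and EV lines, called the effect here, was not the same in the 2 mice. Each mouse is a single animal, so the test measures spread among sister lines. The difference of the log2 effects, mouse 2 minus mouse 1, was -1.72 for Igll1 (FDR = 0.00577), -1.96 for Vpreb1 (FDR = 0.000412) and -3.52 for Vpreb2 (FDR = 5.1e-05; edgeR glmQLFTest of the interaction of mouse and condition). Such a difference was called for 3 of the 7 chain genes and for 16.9% of all tested genes. It was not called for Vpreb3 (-0.82, FDR = 0.0818), Cd79a (-0.86, FDR = 0.0584), Cd79b (-1.15, FDR = 0.0919) or Ighm (-0.27, FDR = 0.433). Without EV 2C it was called for all 7, at -0.43 for Ighm (FDR = 0.0157), beside 36.0% of all genes tested without that line. Without EV 2B and EV 2C, left out together after seeing the data, it was called for 6, beside 33.8%.

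Among the lines of mouse 1 alone, Igll1 was higher with BCR-ABL1 by 1.19 ± 0.09 (log2, SE; FDR = 9.2e-06), Vpreb1 by 1.51 ± 0.12 (FDR = 2.95e-06) and Vpreb2 by 3.10 ± 0.21 (FDR = 5.78e-08; glmTreat, 3 lines per condition). These are 2.29-fold, 2.85-fold and 8.56-fold. In each case all 3 BCR-ABL1 lines lay above all 3 EV lines. The lines of this mouse separated in the same direction for Vpreb3 (0.19 ± 0.08) and Cd79a (0.43 ± 0.09), which were not called. The share of all genes separated in this way in mouse 1 was not counted. The 3 calls among the 7 genes stand beside 16.3% of 15395 genes called higher in that mouse, and Ighm, the 1 gene called lower (-0.93 ± 0.03, FDR = 0.000299), stands beside 12.2%.

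Among the lines of mouse 2 alone, the same 3 genes had negative differences, -0.52 ± 0.36 for Igll1, -0.44 ± 0.24 for Vpreb1 and -0.41 ± 0.34 for Vpreb2, and their conditions overlapped (FDR of 0.914 to 1.00, glmTreat). Of the 7 chain genes 0 were called higher, beside 3.99% of 15400 genes, and 0 lower, beside 2.65%. Ighm differed by -1.20 ± 0.20 with no overlap of the conditions, but its FDR of 0.0504 was past the threshold of 0.05. Vpreb3 differed by -0.63 ± 0.32, Cd79a by -0.42 ± 0.29 and Cd79b by -1.06 ± 0.49, with overlap in each.

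**Figure D2:**
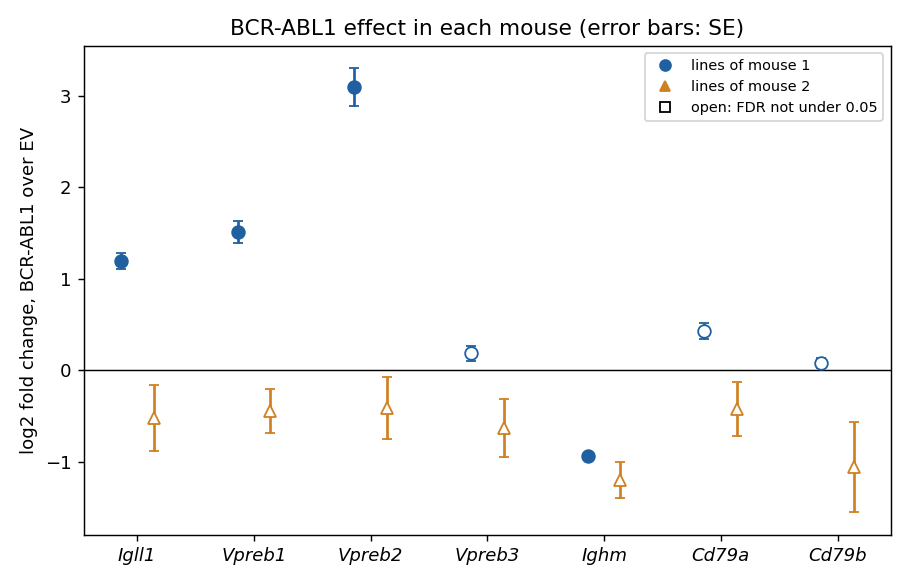
Log2 fold change of BCR-ABL1 over EV (y axis) of each chain gene in the lines of mouse 1 (blue circles) and mouse 2 (orange triangles), 3 lines per condition, with SE as error bars and filled symbols for an FDR under 0.05 by glmTreat. Igll1, Vpreb1 and Vpreb2 are filled and above 0 in mouse 1, at 1.19, 1.51 and 3.10, and open and below 0 in mouse 2.

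The mice differed mainly in the EV lines. There, Igll1 was 2.65-fold higher in mouse 2 than in mouse 1 (FDR = 0.00176), Vpreb1 2.85-fold (FDR = 0.000141), Vpreb2 7.56-fold (FDR = 1.23e-05) and Cd79b 1.94-fold (FDR = 0.0383), all by glmQLFTest. These 4 of 7 genes stand beside 24.8% of all tested genes. Among the BCR-ABL1 lines 0 of the 7 genes were called different between the mice, beside 5.97% of all tested genes, and their lowest FDR was 0.212 (Vpreb2). All 7 nevertheless had their 3 BCR-ABL1 lines of mouse 1 above the 3 of mouse 2, as with Vpreb3 (558.04 CPM or more against 481.6 or less) and Ighm (1396 or more against 1332 or less). The share of all tested genes that separate in this way was not counted, so this only describes the 7 genes. Of the conventional light chain genes, Iglc2 moved with the EV difference, with 3.35 to 5.20 counts per 1000000 counts in the EV lines of mouse 1 and 51.4 to 130 in those of mouse 2. Igkc (378 to 441.04 against 299 to 426) and Iglc3 (18.9 to 23.8 against 9.74 to 18.3) were not higher in mouse 2, and Iglc1 was high in EV 2C alone. The part of Iglc2 in the result was not tested.

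The lines with BCR-ABL1 were also closer to each other in these genes. The coefficient of variation over 6 lines was 65.9% in EV and 13.1% in BCR-ABL1 lines for Igll1, 59.95% and 18.7% for Vpreb1 and 93.4% and 24.1% for Vpreb2. It was also lower in BCR-ABL1 lines for the other 4 genes, with 16.0% and 6.34% for Ighm and 55.7% and 8.41% for Cd79b. No test of the spread was made. The share of all tested genes with a lower spread in BCR-ABL1 lines was not counted, so the trait may not be particular to the chain genes.

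Vpreb2 was the minor copy in all lines. Of the counts on Vpreb1 and Vpreb2 together, it took 9.29% (95% exact binomial interval 8.77 to 9.82%) in EV 1A, 14.4% in EV 1B and 10.7% in EV 1C. The EV lines of mouse 2 had 25.1%, 18.8% and 32.3% (31.8 to 32.8%), and the BCR-ABL1 lines 24.6% to 30.4%. The shares of the mouse 1 EV lines lay below those of all other lines. In contrast, the counts of Igll1 per count of Vpreb1, its neighbour, stayed between 0.742 and 1.08 in all 12 lines. The shares are not scaled for exon length, which is 1199 bp for Vpreb1 and 759 bp for Vpreb2. Per kb of exon Vpreb2 also lay below Vpreb1 in all lines, but by less, as in EV 2C (283.6 against 376.5 CPM per kb). The intervals cover counting error only, and the reads shared by both copies add to it. With the counts of both copies summed, the difference of the effect between the mice was -2.25 (FDR = 0.000111, glmQLFTest).

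**Figure D3:**
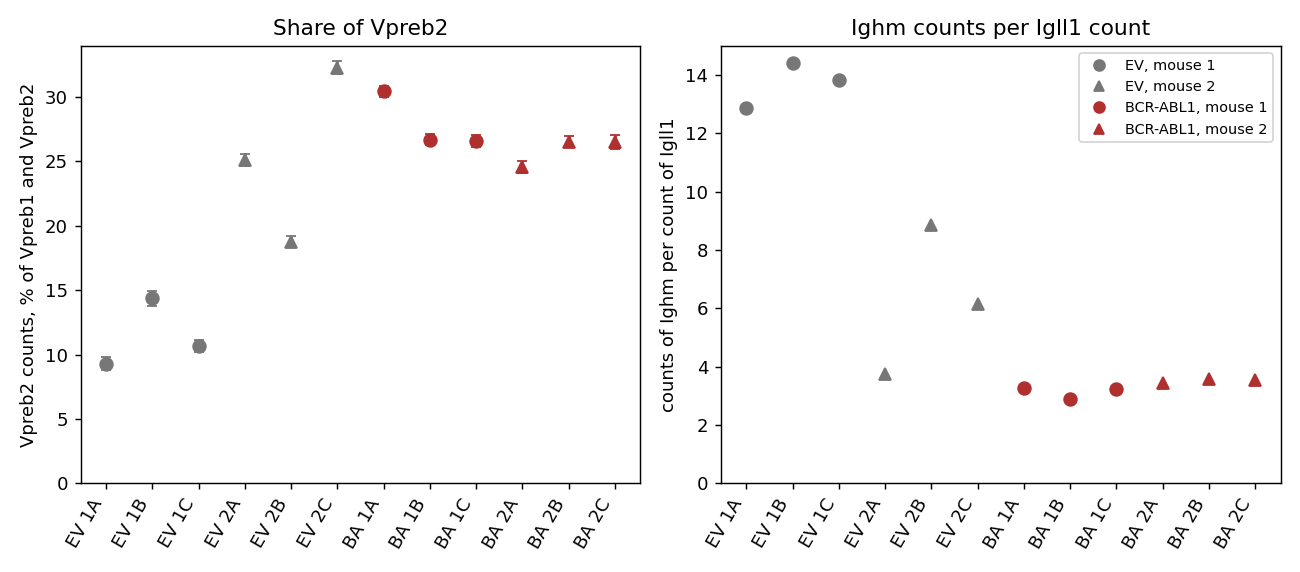
Left, share of Vpreb2 in the counts of Vpreb1 and Vpreb2 (%, with 95% exact binomial intervals), and right, counts of Ighm per count of Igll1, for each of 12 lines (BA, BCR-ABL1). The EV lines of mouse 1 are lowest on the left, at 9.29% to 14.4%, and highest on the right, at 12.9 to 14.4, and the BCR-ABL1 lines lie close together in both.

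Vpreb3, the VpreB-related chain of the endoplasmic reticulum, followed the other 3 only in part. EV lines held 457.4, 499.4 and 547.2 CPM in mouse 1 and 745.1, 867.03 and 420.3 CPM in mouse 2, and BCR-ABL1 lines held 560.9, 584.2 and 558.04 CPM in mouse 1 and 481.6, 416.6 and 401.8 CPM in mouse 2. EV 2A and EV 2B were the highest of the 12 lines, while EV 2C lay among the lowest. In mouse 1 all BCR-ABL1 lines lay above all EV lines (0.19 ± 0.08, log2, SE), but those EV lines were not the lowest of the 12. The log2 difference of -0.24 ± 0.19 (SE) between 589 ± 177 and 501 ± 78.9 CPM (SD, n = 6 each) was not called (FDR = 1, glmTreat).

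Of the signaling chains, Cd79a (Igα) had the same mean in both conditions. The lowest EV line held 323 CPM (1B), the median was 389.4 and the highest line held 611.2 (2B), while BCR-ABL1 lines ranged from 293.9 (2A) over a median of 437.6 to 503.3 (1C). The ranges overlapped over most of their length. The means were 423 ± 113 and 422 ± 83.2 CPM (SD, n = 6 each), the log2 difference was -0.00 ± 0.19 (SE, FDR = 1, glmTreat), and its sign turned under 12 of 25 alternatives.

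Cd79b (Igβ) was more variable in EV lines. These held 345, 307 and 341.9 CPM in mouse 1 and 667.7, 962.7 and 298.8 CPM in mouse 2, whereas BCR-ABL1 lines kept between 292 and 359 CPM with a median of 334. EV 2A and EV 2B stood above all other lines, and the remaining 4 EV lines lay within the range of the BCR-ABL1 lines. The log2 difference of -0.58 ± 0.29 (SE) between 487 ± 271 and 327 ± 27.5 CPM (SD, n = 6 each) was not called (FDR = 0.784, glmTreat). There were 0.859 to 1.58 counts of Cd79b per count of Cd79a in EV lines and 0.674 to 1.12 in BCR-ABL1 lines.

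Levels of different genes were compared per kilobase of annotated exon. In EV lines the order of the means was Ighm at 1502 CPM per kb, Vpreb3 at 686.2, Cd79b at 340.5, Vpreb1 at 331.4, Cd79a at 290.2, Igll1 at 168 and Vpreb2 at 149. The ranges of Ighm and Vpreb3 did not overlap, whereas those of all later neighbours did. Within lines, Ighm exceeded Vpreb3 and Vpreb3 exceeded Cd79b in 6 of 6, and the later steps held in 3 to 5 of 6. In BCR-ABL1 lines the order was Ighm (713 CPM per kb, 653.5 to 766.4), Vpreb3 (583, 467.7 to 680.1), Vpreb1 (422), Cd79a (289), Vpreb2 (247), Cd79b (228) and Igll1 (188). There all neighbours overlapped in range, but each step of this order held within 6 of 6 lines except that from Vpreb2 to Cd79b (3 of 6). Per kb of the longest transcript Vpreb1 reached 655.2, Vpreb3 686.6 and Ighm 792.1 CPM in BCR-ABL1 lines. In EV lines Vpreb1 reached 514 and Cd79b 340.5 CPM on that scale, and Cd79b exceeded Vpreb1 in 0 of 6 lines. The place of Vpreb1 in the order thus depends most on the transcript model.

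**Figure D4:**
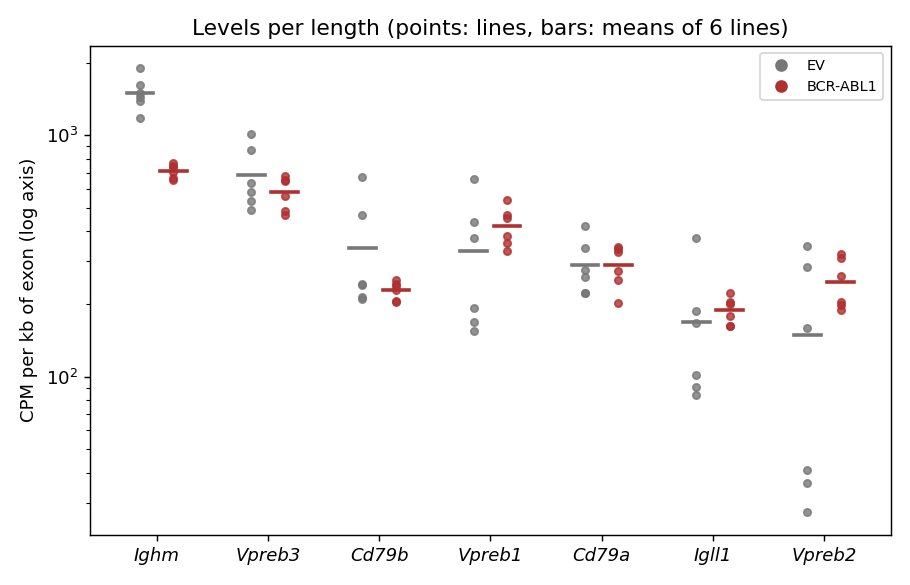
CPM per kb of exon (log axis) of the chain genes in EV (grey) and BCR-ABL1 (red) lines, ordered by the EV mean, with a point per line and a bar at the mean of 6 lines. Ighm stands alone at the top in EV lines, with 1181 CPM per kb or more, and ranges into Vpreb3 in BCR-ABL1 lines.

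Across the 12 lines, log2 CPM of Igll1 and Vpreb1 had a Pearson correlation of 0.97, Vpreb1 and Vpreb2 of 0.95 and Igll1 and Vpreb2 of 0.89. Vpreb3 had values of 0.91 with Cd79b and 0.77 with Cd79a. Over the 6 EV lines these were 0.96 and 0.92, and Ighm had 0.90 with both Vpreb3 and Cd79b and 0.94 with Cd79a. Over the 6 BCR-ABL1 lines Vpreb3 also had 0.98 with Igll1 and 0.96 with Vpreb1, and Cd79a with Cd79b had 0.52. Ighm had negative values with Igll1 (-0.20), Vpreb1 (-0.30) and Vpreb2 (-0.49) over all lines, but 0.35, 0.34 and 0.07 over the 6 EV lines and 0.91, 0.89 and 0.89 over the 6 BCR-ABL1 lines. The lines share 2 mice and 2 conditions, and in the BCR-ABL1 lines 3 lines of each mouse lie close together, so these values are descriptions.

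The genes most like each chain gene over the 12 lines were sought among 10619 tested genes with a mean log2 CPM of at least 1. For Igll1 these were the histone genes Hist1h3b and Hist1h2bg (both 0.95) and Abcg2 (0.94), for Vpreb1 1600014C10Rik and Hist1h3d (both 0.97) and Selenom (0.97), and for Vpreb2 Pcnx4 (0.99), Dlx1 and Ssh1 (both 0.98). For Vpreb3 they were Gabarapl2 (0.99), Srgn (0.97) and Otulin (0.96). Those of Ighm were Tmem80 (1.00), Nfkb2 and Evi5l (both 0.99), and these 3 were lower in BCR-ABL1 lines too. Their lower level follows from the choice by correlation, since Ighm itself separates the conditions. Cd79a was followed by Pde2a (0.97), Clec4f and Scamp2 (both 0.94), and Cd79b by Cnp and Adgre5 (both 0.99) and Glrx (0.98).

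The other immunoglobulin constant genes encode the heavy chains of later B cells and the conventional light chains. Of 12 such genes 5 were tested, with 0 called higher and 2 called lower, and the median log2 difference was -2.44. The calls in this list and in those that follow stand beside 5.99% of all tested genes called higher and 6.49% called lower. Igkc (κ) ranged from 303 to 435 CPM with the empty vector and from 45.3 to 66.1 CPM with BCR-ABL1 (log2 difference -2.75 ± 0.12, FDR = 2.7e-07, glmTreat). Iglc2 (λ) ranged from 3.09 to 133 CPM in EV lines and did not exceed 0.424 CPM with BCR-ABL1 (FDR = 0.000815, glmTreat), with an effect that differed between the mice (-5.84, FDR = 0.00135, glmQLFTest). Iglc1 and Iglc3 had log2 differences of -2.44 (FDR = 0.0686) and -1.50 (FDR = 0.209). Ighd, the δ gene 2234 bp from Ighm, had 25.1 to 46.0 CPM in EV and fewer in all BCR-ABL1 lines, but its difference of -0.52 ± 0.14 was not called (FDR = 1).

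The 7 constant genes that did not pass the filter were near 0 in most lines. EV 2C was the exception, with 607 counts of Ighg3 and 195 of Ighg1, where the other 11 lines had at most 6 and 3. Ighg2b, Ighg2c, Ighe and Igha did not exceed 15 counts and Iglc4 not 34 in any line. The same line had 30.8 counts of Iglc1 per 1000000 counts, against 3.37 to 5.40 in the other EV lines, and the lowest Ighm of the EV lines. Ighm without EV 2C was still called, as it was without each other line in turn.

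Downstream of the receptor, 29 genes of its signaling were all tested. Of these 2 were higher, 3 lower and 24 not called, with a median log2 difference of -0.11. The higher ones were Bank1, a scaffold of B cell receptor signaling (7.26 ± 2.37 against 41.4 ± 10.8 CPM, SD, n = 6, log2 difference 2.51 ± 0.27, FDR = 8.43e-05), and Pik3cd, the catalytic subunit p110δ (289 ± 36.3 against 1046 ± 69.8 CPM, 1.85 ± 0.08, FDR = 8.04e-07). The lower ones were the inhibitory receptors Cd72 (-2.52 ± 0.20, FDR = 7.65e-06) and Cd22 (-1.36 ± 0.34, FDR = 0.0345) and the Syk family kinase Zap70 (-2.46 ± 0.60, FDR = 0.0147), all by glmTreat. For Zap70 the effect differed between the mice (FDR of the interaction = 0.000147, glmQLFTest). The call of Cd22 was lost with DESeq2 (FDR = 0.119), in mouse 2 alone, and without each of EV 1A, EV 2A, EV 2B and BCR-ABL1 1A and 1C (FDR of 0.0574 to 0.0766), whereas without EV 2C 5 genes of the list were lower.

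Syk, the kinase recruited to Cd79a and Cd79b, ranged from 233 to 896 CPM with the empty vector and from 389.5 to 473 CPM with BCR-ABL1 (log2 difference -0.29 ± 0.26, FDR = 1). Btk had 44.0 to 103 and 71.7 to 108 CPM (0.03 ± 0.23, FDR = 1), and the adaptor Blnk 73.0 to 454 and 209 to 299.7 CPM (0.35 ± 0.38, FDR = 1). None of these 3 was called by glmTreat, and their conditions overlapped.

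Of 28 transcription factors and other regulators tied to the chain genes, 27 were tested, 1 was higher and 3 were lower, with a median of -0.32. Without EV 2C 5 were lower, and with library totals in place of TMM 6. Erg, an ETS factor, did not exceed 0.358 CPM in any EV line and ranged from 46.3 to 117 CPM with BCR-ABL1 (FDR = 2.27e-06, glmTreat). Bcl6, a repressor induced by signals of the pre-B cell receptor, was lower (40.1 ± 14.6 against 2.37 ± 0.576 CPM, -4.08 ± 0.37, FDR = 1.31e-05), as were Bach2, a repressor (-1.50 ± 0.28, FDR = 0.0067), and Ets1 (-1.37 ± 0.11, FDR = 7.06e-05). The call of Bach2 was lost in mouse 2 alone (FDR = 0.105, glmTreat). For Erg (-4.01, FDR = 0.0325) and Ets1 (-0.45, FDR = 0.0233) the effect differed between the mice (glmQLFTest). Factors that bind the surrogate light chain promoters had smaller differences that were not called, with -0.28 for Ebf1, -0.32 for Tcf3 (E2A), -0.10 for Pax5 and -0.19 for Ikzf1 (FDR = 1 each, glmTreat).

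Among the recombination genes, Dntt, the terminal transferase, ranged from 0.101 to 18.5 CPM in EV lines and began at 31.6 CPM with BCR-ABL1 (log2 difference 4.30 ± 1.25, FDR = 0.0396, glmTreat). The effect differed between the mice (-7.35, FDR = 0.00427, glmQLFTest). The call was lost with mouse as replicate block (FDR = 0.0533), in mouse 2 alone (FDR = 0.454) and without each of EV 1A, EV 1B, EV 1C, EV 2A and BCR-ABL1 1A, 1B, 1C and 2A. Rag1 (-0.66 ± 0.51, FDR = 0.807) and Rag2 (0.29 ± 0.48, FDR = 1) were not called. Of 18 genes of chain folding and secretion, 2 were higher and 1 lower with a median of 0.50. Jchain, the joining chain of secreted IgM (3.21 ± 0.57, FDR = 0.00405), and Xbp1, a factor of the secretory program (1.00 ± 0.11, FDR = 0.00382), were higher, and Prdm1 (Blimp1) was lower (-3.15 ± 0.46, FDR = 0.00243). The number of higher genes was 8 without EV 2C, 7 in mouse 1 alone and 0 in mouse 2 alone, where Jchain and Xbp1 had an FDR of 0.0865 and 0.144. For Jchain the effect differed between the mice (-2.45, FDR = 0.0282, glmQLFTest). Of the 18 genes 10 lay above EV in all BCR-ABL1 lines, beside 12.1% of all tested genes. Among the 10 were Hspa5 (BiP), which binds unpaired µ chains (0.73, FDR = 0.245), and Hsp90b1 (0.69, FDR = 0.233, both by glmTreat). A plasma cell list of 7 genes, 4 of which are in these lists, had 2 higher (Jchain and Xbp1) and 2 lower (Prdm1 and Slamf7) of 6 tested. The effect on Slamf7 differed between the mice (2.32, FDR = 0.00925, glmQLFTest).

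**Figure D5:**
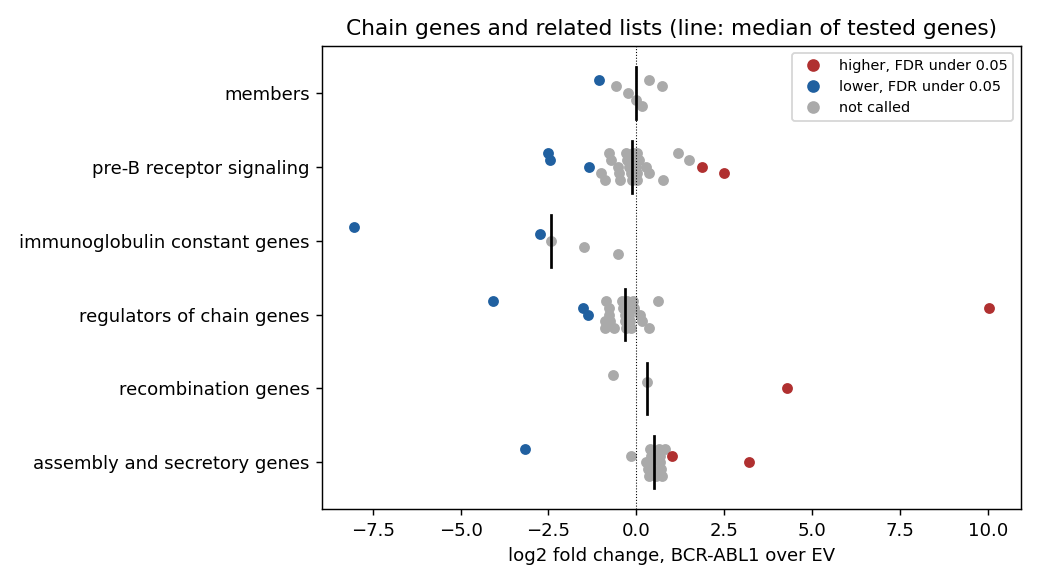
Log2 fold change of BCR-ABL1 over EV (x axis) of each tested gene of the chain genes (members) and of 5 lists, with red for called higher, blue for called lower, grey for not called (glmTreat) and a line at the median of the list. Erg lies at the far right, where EV lines had 0.358 CPM or less, and the median is lowest for the immunoglobulin constant genes, at -2.44.

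Genes that lie within 100 kb of the chain genes were tested in the same fit. Near Igll1 and Vpreb1, the tested neighbours Top3b (-0.17) and Ppm1f (0.16) were not called. Of the neighbours of Vpreb2, 1 of 7 tested genes, AA914427, was lower (-1.01, FDR = 0.0278), and Dgcr2, Prodh, Ess2, Slc25a1, Dgcr6 and Gm20518 were not called. Near Vpreb3, 1 of 9 was lower, Derl3 (-1.35, FDR = 0.0116), and Mmp11, Smarcb1, Gm5134, Mif, Chchd10, Zfp280b, Gm867 and the overlapping Gm16221 (0.01) were not. Of the 4 tested next to Cd79a, Rabac1, Arhgef1, Rps19 and Gm9844, 0 were called. Next to Cd79b, 1 of 11 was lower, Scn4a (-2.12, FDR = 0.0345), and Icam2, Ddx42, Ftsj3, Psmc5, Tcam1, Gh, Ern1, Gm23645, Smarcd2 and Ccdc47 were not called. Near Ighm 1 of 8 tested genes was higher, the diversity segment Ighd2-4, at most 0.0180 CPM with the empty vector and 1.53 to 2.32 CPM with BCR-ABL1 (FDR = 3.91e-07), and Ighj2, Ighj3, Ighj4, Ighd, Ighd2-7, Adam6b and Gm22175 were not called. All these calls were made by glmTreat.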

How the data were processed

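Stranded total RNA (TruSeq Gold) of 12 lines was sequenced with paired-end reads of 150 bp. The deposited values are integer read counts per gene, made by the authors for each line, without normalization or pooling. The submitters' processing notes name FastQC 0.11.5, Trimmomatic 0.36, TopHat2 2.1.1, Bowtie2 2.3.2, featureCounts 1.5.3, R 3.6.1, edgeR 3.18.1 and GRCm38. The annotation release, the strand setting and the treatment of multiply mapped reads are not given in the sources used here, so reads shared by gene copies may be lost or split.

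The tools were edgeR 4.0.16, limma 3.58.1 and DESeq2 1.42.0 in R 4.3.3, with matplotlib for plots. GENCODE M21 held 51633 of 51826 identifiers. After filterByExpr and TMM, conditions were compared by glmTreat (null of at most 1.5-fold, quasi-likelihood fit), with Benjamini-Hochberg adjustment over all tested genes and a threshold of 0.05. Differences between the mice used glmQLFTest. Log2 differences come from the fits, whereas SE values come from the spread of log2 CPM (prior count 2). Where lines vary widely, the fitted difference and that of mean log2 CPM can be unlike. Shares have 95% exact binomial intervals. Within-mouse folds come from fits of that mouse alone. The fits were tested on simulated counts.

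Conditions, mice and letters came from the sample labels, which give the mouse of each line. Triplicates came from independent experiments, and the labels do not tie these to the letters. Across conditions, deviations from the group means had correlations of 0.0853 to 0.240 within a mouse and of -0.203 to -0.0636 across mice. No pair of lines agreed within sampling noise (chi-square per gene 9.36 to 434).

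The members and lists were chosen with earlier results of these data known. All 7 chain genes are named, and of each list up to 4 called genes per direction, besides constant and recombination genes, Syk, Btk, Blnk, tested genes within 100 kb and the 3 most correlated genes. Other genes named (Pax5, Ebf1, Tcf3, Ikzf1, Hspa5 and Hsp90b1) were chosen after their values were seen. Alternatives were DESeq2, RLE factors, library totals, TMM scaling computed without immunoglobulin and chain genes, other filters, the likelihood ratio fit, a test against no change, replicate blocks, each mouse alone, each line left out, summed Vpreb1 and Vpreb2, and other lengths.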

Additional observations from a re-analysis of the deposited data

Results flagged for a closer look

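In EV line 2A, Igll1 stood at 812.5 CPM, whereas the next highest EV line had 405.2 CPM. The gap was 0.645 of the range of the 6 EV lines, above the 95% critical value of Dixon's test. Of 14 groups of 6 lines tested this way, it was the 1 that passed, and chance alone flags about 1 group in 20. The test takes the 6 EV lines as 1 population, whereas their Igll1 levels split by mouse (181 to 219 CPM in mouse 1 and 362 to 812.5 CPM in mouse 2).

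For 3 chain genes the difference between BCR-ABL1 and EV lines was not the same in the mice by a test of the interaction (edgeR glmQLFTest, adjusted over 15038 genes). The log2 fold change in mouse 2 minus that in mouse 1 was -1.72 for Igll1, -1.96 for Vpreb1 and -3.52 for Vpreb2. In all 3 the EV lines of mouse 1 were the 3 lowest of the 12 lines.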

How the results depend on the processing

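Ighm stayed lower under all 25 alternatives (log2 difference -1.20 to -0.93, FDR 2.38e-05 to 0.0504) and was called in all but the lines of mouse 2 alone, where 0 chain genes were lower. With mouse as replicate block its difference was -1.08 (FDR = 0.0015), and the replicate block changed no other call of a chain gene, although it moved Vpreb2 from 0.73 to 1.33 (1.39 with mouse and letter). In the lines of mouse 1 alone 3 chain genes were higher, and the differences of Vpreb3 (0.19), Cd79a (0.43) and Cd79b (0.081) changed sign. In mouse 2 alone those of Igll1 (-0.52), Vpreb1 (-0.44) and Vpreb2 (-0.41) did. Cd79a, near 0, also changed sign with DESeq2 and with RLE factors (0.0217 each), without a filter (0.056), with mouse and letter as replicate block (0.013) and without EV 2B and 2C (0.067). Its sign also changed without each of EV 1A, EV 2A, EV 2B and BCR-ABL1 2A, 2B and 2C (0.017 to 0.12). Without each other single line Cd79a kept its sign (-0.072 to -0.020). The number of chain genes whose effect differed between the mice was 3 to 7 without single lines, with 7 without EV 2C, and 6 without EV 2B and 2C. In the 5 related lists 6 genes were higher and 9 lower. These numbers became 20 and 28 in a test against no change, 14 and 15 in mouse 1 alone, 11 higher without EV 2B and 2C, and 12 higher without EV 2C. The fewer lines and the lower null fold are part of these settings, and the cause of the other changes was not tested. Without EV 2B and 2C was added after seeing the data, as was the interaction for summed Vpreb1 and Vpreb2.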
